A study of Medicago truncatula with 6 samples.

Results

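The genes of protease inhibitors were followed in roots of the legume Medicago truncatula grown with an arbuscular mycorrhizal fungus. They were the annotated genes whose deposited description holds the words Kunitz, trypsin inhibitor, Bowman-Birk, proteinase inhibitor or protease inhibitor, without lipid transfer or seed storage. These words matched 95 genes, 5 of which were taken out as lipid transfer or seed storage proteins, and the 90 left were 90 of 54762 loci in the table. RNA sequencing libraries were compared from 3 mycorrhizal root samples of the Mtphr2 mutant and 3 of the wild-type line R108. Both genotypes are labelled mycorrhizal, and no roots without the fungus are in the comparison. The labels give neither the Mtphr2 allele, the fungus, the plants' age nor the phosphate supply, and they describe the 3 replicates of each sample as technical, so the p-values measure the spread between these libraries, which may be technical. That spread was above sampling noise within both genotypes. PHR proteins are MYB-type transcription factors of the phosphate starvation response, and the comparison asked how gene expression differs between the genotypes under mycorrhizal conditions.

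Kunitz inhibitors are small secreted proteins that block serine proteases such as trypsin by placing a loop in the active site. Bowman-Birk inhibitors do the same with a smaller, disulfide-rich fold, and cystatins block papain-type cysteine proteases. In Medicago truncatula the Kunitz proteins KPI104 and KPI106 are known from mycorrhizal roots, where KPI106 binds the serine carboxypeptidase SCP1 and acts on the development of arbuscules, the branched fungal structures inside root cortex cells.

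The name of the group held for most of its genes and not for all. The Kunitz domain was annotated in 47 of the 90, and the descriptions name 19 cystatins, 14 Bowman-Birk inhibitors, 2 potato type II inhibitors and 2 Kazal-type inhibitors. A von Willebrand factor A domain in place of an inhibitor domain was annotated in 3 genes described as inter-alpha-trypsin inhibitor heavy chains, which in mammals are not the inhibitory subunit. A late nodulin domain was annotated in 2 genes described as Kunitz inhibitors, MTR_6g478110 and MTR_7g034210, and both had 0 counts in all 6 libraries. By their locus names 32 genes lie on chromosome 6, 17 on chromosome 7, 10 on chromosome 3 and 8 on chromosome 8, and 7 lie on scaffolds with no chromosome. Many lie in runs of neighbouring locus numbers, the longest being 15 genes on chromosome 7 between MTR_7g077160 and MTR_7g077350, nearly all Bowman-Birk, 9 Kunitz genes on chromosome 6 between MTR_6g059410 and MTR_6g059810, and 8 Kunitz genes between MTR_6g078040 and MTR_6g078280.

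Estimated counts per library summed to 19809184 to 21477169 in Mtphr2 and to 18199040 to 19396774 in R108. Levels are given as CPM, counts scaled to the library size after TMM. Errors after ± are SD (n = 3 libraries), and a standard error is marked SE. Leghemoglobin genes, which mark nodules, summed to 1.96 to 3.64 CPM in Mtphr2 and 4.12 to 11.6 CPM in R108, and genes named for photosynthetic light harvesting or the Rubisco small subunit to 130.5 to 215 CPM in Mtphr2 and 132 to 203 CPM in R108. Genes named for the Casparian strip, a wall structure of the root endodermis, summed to 142 to 177 CPM in Mtphr2 and 109 to 329 CPM in R108. The 9 arbuscule marker genes stood apart by library: they summed to 878, 85.0 and 187 CPM in Mtphr2 replicates 1 to 3, and to 4027, 1886 and 941 CPM in R108 replicates 1 to 3. Mtphr2 replicate 1 and R108 replicate 3 were therefore close to each other in marker level. The labels do not name the mutated locus, so its level was not checked here.

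Of the 90 genes 38 had no counts in any library, which allows up to 0.138 to 0.163 CPM per library (3 counts, counting error only), 16 had some counts but too few to be tested, and 36 were tested. The silent genes included 14 of the 19 cystatins and 6 of the 14 Bowman-Birk genes. With edgeR (quasi-likelihood test, Benjamini-Hochberg adjusted p below 0.05) 0 of the 36 were called, where 0.0794% of all tested loci were, and their lowest adjusted p was 0.177. An unadjusted p under 0.05 was found for 8 of the 36 (22.2%), against 16.4% of all tested loci. With a term for the replicate number (the replicate block) 1 gene was called, higher in Mtphr2, against 0.335% of all tested loci in either direction and 0.115% higher. DESeq2 called 4 of the 36 (11.1%, 3 higher and 1 lower in Mtphr2), against 5.73% of all tested loci (2.77% higher and 2.96% lower), and gave no adjusted p for MTR_3g014870. Limma-voom called 0, against 0.137%. In 7 of the 36 genes (19.4%) the libraries of the genotypes did not overlap, close to the 22.2% of all tested loci. Of the 7, 4 had all Mtphr2 libraries above all R108 libraries and 3 had them below, against 11.6% and 10.6% of all tested loci. Fitted differences of at least 2-fold were more frequent, with 4 genes higher and 12 lower in Mtphr2, 16 of the 36 in all, against 8.43% of all tested loci (3.59% higher and 4.84% lower). The median log2 fold change (Mtphr2 over R108) was -0.14 over the 36 genes and 0.02 over all tested loci, and the plot of fitted changes shows that this median joins groups of genes with opposite signs.

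**Figure D1:**
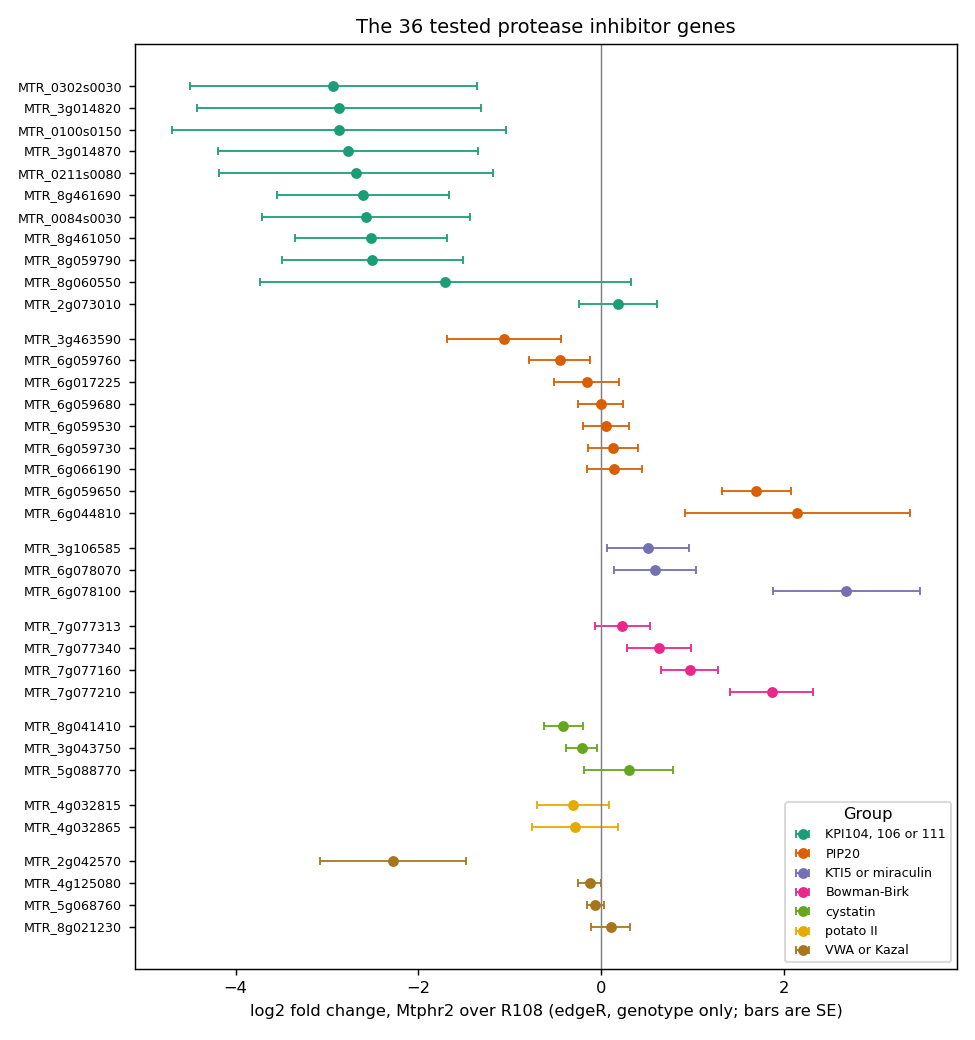
Fitted log2 fold change (Mtphr2 over R108, horizontal axis) of the 36 tested protease inhibitor genes by edgeR with genotype alone, with bars for the SE, coloured by the closest Swiss-Prot entry or domain. Of the 11 genes closest to KPI104, KPI106 or KPI111, 10 lie left of 0 and MTR_2g073010 lies right of it, and all 4 Bowman-Birk genes and all 3 genes closest to KTI5 or miraculin lie right of 0.

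The inhibitors that the Medicago entries KPI104, KPI106 and KPI111 match best made up 10 of the 12 genes with a fitted level at least 2-fold lower in Mtphr2, or 9 without MTR_8g060550, which had 0 counts in 3 libraries. This grouping by closest Swiss-Prot entry was made after the values were seen, so it is described and not tested. It holds 13 genes, 7 closest to KPI104, 3 to KPI106 and 3 to KPI111, and 11 were tested. Of these 10 had a negative and 1 a positive log2 fold change, with a median of -2.60 (-4.54 without Mtphr2 replicate 1). Without MTR_8g060550, left out after the data were seen, 9 of 10 were negative, with a median of -2.64. None was called: 0 passed by edgeR with or without the replicate block, 0 by DESeq2 and 0 by limma-voom. DESeq2 gave no adjusted p for MTR_3g014870. Of all tested loci 0.0794% were called by edgeR, 0.335% with the block, 5.73% by DESeq2 and 0.137% by limma-voom. By edgeR 3 of the 11 had an unadjusted p under 0.05, against 16.4% of all tested loci. In 9 of the 11 the Mtphr2 library was below the R108 library of the same number in all 3 pairs, which was so for 22.3% of all tested loci.

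The gene to which the RefSeq gene table gives the name KPI104, MTR_0100s0150, had 381, 0.368 and 17.4 CPM in Mtphr2 replicates 1 to 3, against 1924, 529 and 454 CPM in R108 replicates 1 to 3. All Mtphr2 libraries lay below all R108 libraries, but Mtphr2 replicate 1 lay near R108 replicate 3, and Mtphr2 replicate 2 held 8 counts in all. The mean was 7.29-fold lower in Mtphr2, at a log2 fold change of -2.87 with an SE of 1.83 (edgeR adjusted p = 0.479), or -4.97 under the replicate block (edgeR adjusted p = 0.188). It was -6.77 without Mtphr2 replicate 1 and -1.89 without R108 replicate 1. The spread inside Mtphr2 was larger than the difference, since its libraries spanned 1035-fold and those of R108 4.24-fold.

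MTR_3g014820 on chromosome 3, also closest to KPI104, had 242, 6.14 and 6.82 CPM in Mtphr2 and 1301, 318 and 239 CPM in R108 (replicates 1 to 3 in each), so that Mtphr2 replicate 1 was above R108 replicate 3. Its log2 fold change was -2.87 (SE 1.56, adjusted p = 0.407 by edgeR). MTR_0302s0030 on an unplaced scaffold had 74.4, 0.717 and 2.77 CPM in Mtphr2 and 404, 105 and 83.4 CPM in R108, with no overlap (log2 fold change -2.93, SE 1.57, adjusted p = 0.402 by edgeR). MTR_0084s0030 had 122, 5.50 and 19.4 CPM in Mtphr2 and 516, 245 and 111.1 CPM in R108, where Mtphr2 replicate 1 again reached above R108 replicate 3 (log2 fold change -2.57, adjusted p = 0.326 by edgeR). The other tested genes closest to KPI104, MTR_0211s0080 and MTR_3g014870, had 19.4 ± 31.2 and 8.21 ± 12.99 CPM in Mtphr2, against 124.8 ± 103.9 and 55.9 ± 54.5 CPM in R108. Without Mtphr2 replicate 1 the log2 fold changes of MTR_3g014820, MTR_0302s0030 and MTR_0084s0030 were -6.58, -6.82 and -4.54, and without R108 replicate 1 they were -1.71, -1.86 and -1.87. All 6 had estimated counts that were not whole numbers in 5 or 6 libraries, so reads were shared out among similar loci and the split between them is uncertain. Their sum together with the untested MTR_7g108815, which had at most 4 counts in a library, does not depend on how reads were split among these 7, and came to 898, 14.2 and 49.4 CPM in Mtphr2, against 4508, 1299 and 965 CPM in R108.

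KPI106 itself, MTR_8g059790 on chromosome 8, had whole counts in all libraries, so no split of its reads was recorded. Misplaced reads from related loci were not checked for in this gene. It had 56.1, 4.05 and 9.76 CPM in Mtphr2 replicates 1 to 3, against 213, 119 and 63.3 CPM in R108 replicates 1 to 3. The genotypes did not overlap, with Mtphr2 replicate 1 just below R108 replicate 3. The log2 fold change was -2.50 (SE 0.99, adjusted p = 0.288 by edgeR), and it was -3.06 in the fit with the block (edgeR adjusted p = 0.10). The relative MTR_2g073010 on chromosome 2, whose closest entry is also KPI106, had 3.61, 8.93 and 5.43 CPM in Mtphr2 and 5.32, 7.28 and 3.20 CPM in R108, with overlap (log2 fold change 0.19, SE 0.42, adjusted p = 0.861 by edgeR), and was the 1 gene of the 11 with a positive sign. Its neighbour MTR_2g072980 had at most 2 counts in a library.

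The 3 genes closest to KPI111 also lie on chromosome 8. MTR_8g461690 had 66.5, 6.59 and 19.3 CPM in Mtphr2 and 336, 157 and 66.3 CPM in R108, and MTR_8g461050 had 20.4, 3.78 and 4.67 CPM in Mtphr2 and 93.9, 52.0 and 19.7 CPM in R108. For both, Mtphr2 replicate 1 was just above R108 replicate 3, and the log2 fold changes were -2.60 (SE 0.94, adjusted p = 0.268 by edgeR) and -2.52 (SE 0.83, adjusted p = 0.255 by edgeR). MTR_8g060550 carries the same RefSeq gene ID as MTR_8g461690, and its counts came and went between libraries (2.95, 1.56 and 0 CPM in Mtphr2 and 0, 14.7 and 0 CPM in R108), so its fold change is not read here. In the libraries where MTR_8g060550 had counts, those of both loci were not whole. Reads were thus shared out between them, and the values of MTR_8g461690 depend on an uncertain split. The sum of the 3 genes does not depend on it. Across the 9 genes with a negative sign other than MTR_8g060550, the mean in Mtphr2 was 5.66-fold to 7.601-fold below that in R108.

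**Figure D2:**
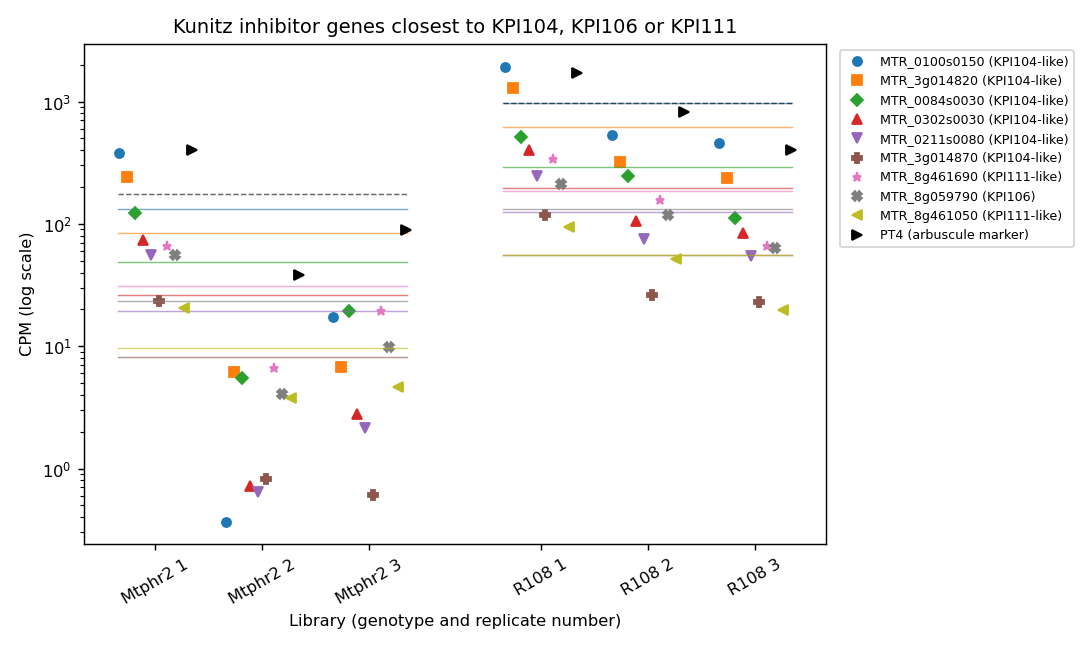
CPM on a log axis in each library of 9 Kunitz inhibitor genes closest to KPI104, KPI106 or KPI111 and of the arbuscule marker PT4, with a horizontal line at the mean of each gene over the 3 libraries of a genotype. Mtphr2 replicate 1 lies near R108 replicate 3, and Mtphr2 replicates 2 and 3 lie below all R108 libraries.

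From library to library, KPI106 and the sum of the genes closest to KPI111 stayed within a narrow range of ratios to the arbuscule marker PT4. The sum of the genes closest to KPI104 kept PT4's order of libraries but not the ratio, and MTR_2g073010 kept neither. PT4 (MTR_1g028600), the phosphate transporter of the membrane around the arbuscule, had 403, 38.3 and 89.0 CPM in Mtphr2 and 1705, 819 and 404 CPM in R108. All 9 markers had negative log2 fold changes, with a median of -2.47, and none was at 0 in any library. By edgeR 0 of the 9 were called, with 8 at an unadjusted p under 0.05, and 1 was called with the replicate block and 3 by DESeq2. Of all tested loci 0.0794% were called by edgeR, 16.4% had an unadjusted p under 0.05, 0.335% were called with the block and 5.73% by DESeq2. In whole roots, fewer cells with arbuscules and less RNA per such cell cannot be told apart. Set against PT4 in the same library, KPI106 had a ratio of counts of 0.139, 0.106 and 0.110 in Mtphr2 and 0.125, 0.145 and 0.157 in R108, which overlap. The sum of the 3 genes closest to KPI111 gave 0.223, 0.311 and 0.270 in Mtphr2 and 0.252, 0.274 and 0.213 in R108, which overlap as well. The sum of the 7 genes closest to KPI104 gave 2.23, 0.370 and 0.555 in Mtphr2 and 2.64, 1.59 and 2.39 in R108, so that Mtphr2 replicates 2 and 3 were below every R108 library while Mtphr2 replicate 1 was among them. Against the sum of all 9 markers the values for KPI104 were 1.02, 0.167 and 0.264 in Mtphr2 and 1.12, 0.689 and 1.03 in R108. The part of the marker level in the genotype difference of these inhibitors was not tested.

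**Figure D3:**
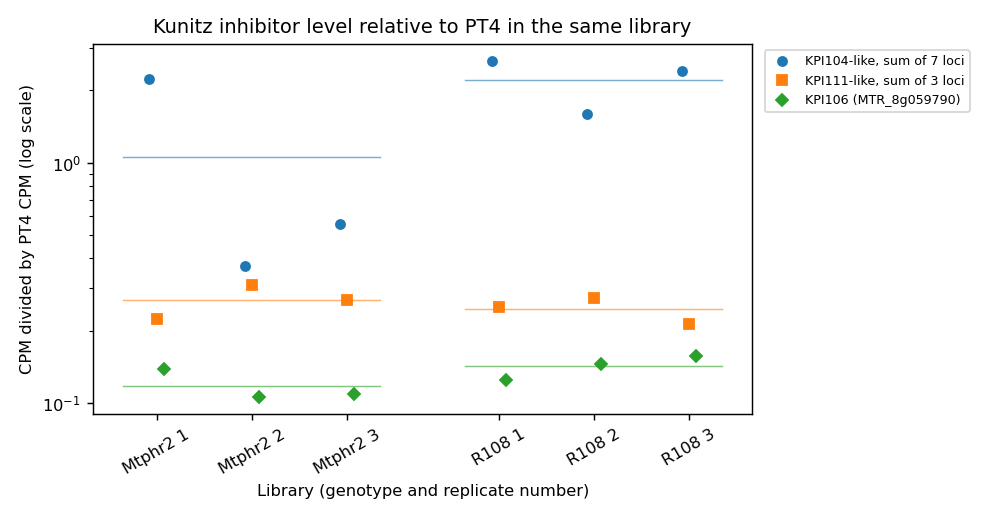
CPM divided by PT4 CPM in the same library, on a log axis, for the sum of the 7 genes closest to KPI104, the sum of the 3 genes closest to KPI111 and KPI106, with lines at the mean over the 3 libraries of a genotype. KPI106 and the KPI111 sum stay between 0.106 and 0.311 in all 6 libraries, and the KPI104 sum is at 0.370 and 0.555 in Mtphr2 replicates 2 and 3, against 1.59 to 2.64 in R108.

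This group made up a varying share of the inhibitor transcripts. The 90 genes summed to 2519, 1466 and 2296 CPM in Mtphr2 replicates 1 to 3, against 6519, 2658 and 2574 CPM in R108 replicates 1 to 3. The 13 genes closest to KPI104, KPI106 or KPI111 made up 41.6%, 2.67% and 3.86% of that in Mtphr2 and 79.1%, 62.0% and 43.4% in R108. The other 77 genes summed to 1471, 1427 and 2207 CPM in Mtphr2 and 1362, 1009 and 1456 CPM in R108, and the lowest Mtphr2 library lay below the highest R108 library. Per length, MTR_0100s0150 was the highest of the 36 genes in R108, with a mean of 1094 CPM per kilobase, and the 5th in Mtphr2, with 150 CPM per kilobase. The Bowman-Birk gene MTR_7g077340 was the highest in Mtphr2, with 403 CPM per kilobase, and the 5th in R108, with 259 CPM per kilobase.

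**Figure D4:**
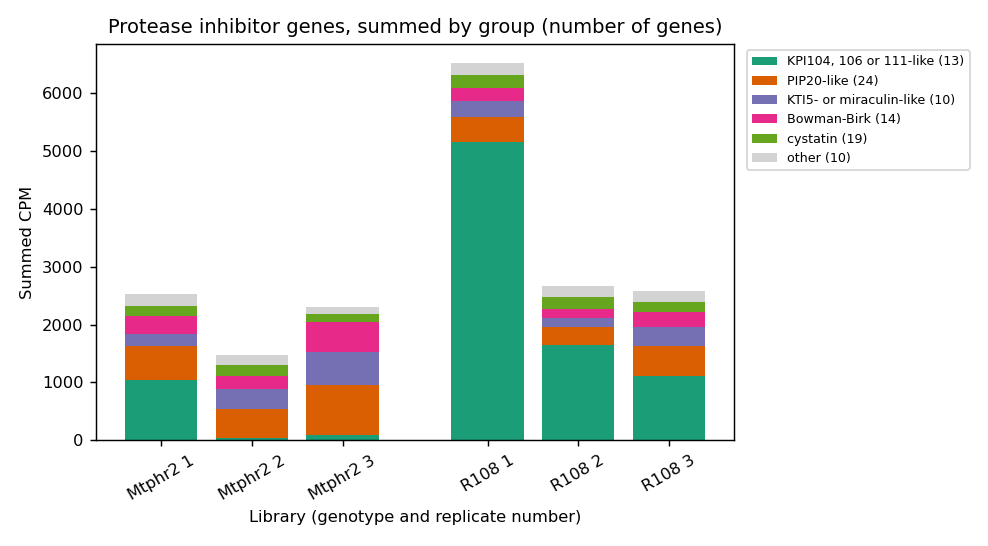
Summed CPM of the protease inhibitor genes in each library, stacked by group. The genes closest to KPI104, KPI106 or KPI111 sum to 1047, 39.1 and 88.6 CPM in Mtphr2 replicates 1 to 3 and to 5157, 1649 and 1118 CPM in R108 replicates 1 to 3, while the other groups together run from 1427 to 2207 CPM in Mtphr2 and from 1009 to 1456 CPM in R108.

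SCP1, the carboxypeptidase that KPI106 binds, is the closest Swiss-Prot entry of 9 genes, of which 6 in a run on chromosome 3 were tested. Their sum was 691, 192 and 201 CPM in Mtphr2 and 2486, 1347 and 288 CPM in R108. Mtphr2 replicate 1 lay above R108 replicate 3 in this sum, whereas for KPI106 it lay just below. The sum followed the arbuscule markers in part: R108 replicate 3, with 941 CPM of marker transcripts, was below Mtphr2 replicate 1, with 878 CPM. The part of the markers in this difference was not tested. All 6 had negative log2 fold changes, with a median of -1.93. By edgeR 0 were called, with 0 at an unadjusted p under 0.05, and 0 with the replicate block. DESeq2 and limma-voom called 0 as well. Of all tested loci, edgeR called 0.0794%, or 0.335% with the block, DESeq2 5.73% and limma-voom 0.137%. An unadjusted p under 0.05 by edgeR was found for 16.4% of all tested loci. The counts of 0 among these 6 genes are therefore not read as a result. All 6 had counts that were not whole, so their single values are uncertain.

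Among the genes closest to the pea Kunitz proteins PIP20-1 and PIP20-2, MTR_6g059650 was higher in Mtphr2. It had 298, 246 and 556 CPM in Mtphr2 replicates 1 to 3, against 98.1, 84.5 and 155 CPM in R108 replicates 1 to 3. Every Mtphr2 library was above every R108 library, by 3.04-fold, 2.91-fold and 3.58-fold within libraries of the same number. The mean was 3.25-fold higher, at a log2 fold change of 1.70 with an SE of 0.37 (edgeR adjusted p = 0.177). It was called higher in Mtphr2 with the replicate block (log2 fold change 1.66, adjusted p = 0.0314 by edgeR) and by DESeq2 (adjusted p = 4.05e-04), and it was the 1 inhibitor gene that passed with the block. Per length it was the 2nd of the 36 genes in Mtphr2, at 403 CPM per kilobase, and the 11th in R108, at 124 CPM per kilobase. Its counts were whole in all libraries.

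The genes beside it in the run on chromosome 6 had smaller fitted changes. MTR_6g059730, closest to PIP20-2, had 168, 201 and 231 CPM in Mtphr2 and 174, 120.2 and 253 CPM in R108, which overlapped, at a log2 fold change of 0.13 with an SE of 0.27 (edgeR adjusted p = 0.845). MTR_6g059680 had 15.9 ± 2.50 CPM in Mtphr2 and 15.9 ± 5.10 CPM in R108. MTR_6g059530 and MTR_6g059760 had log2 fold changes of 0.05 and -0.45, with adjusted p values from edgeR of 0.935 and 0.540. The other 4 genes of the run had at most 5 counts in a library, and 3 of them had none. Over all 24 genes closest to PIP20-1 or PIP20-2, 9 were tested, 5 with positive and 4 with negative log2 fold changes and a median of 0.05. MTR_3g463590 on chromosome 3 had the lowest, with 81.4, 22.8 and 17.6 CPM in Mtphr2 and 125, 72.5 and 56.4 CPM in R108, lower in each same-number pair (log2 fold change -1.06, adjusted p = 0.445 by edgeR). Some members of this kind were high in 1 library. MTR_6g044780 had 160 counts in Mtphr2 replicate 3 and at most 4.5 in the other libraries, its neighbour MTR_6g044810 had 96 counts in Mtphr2 replicate 3 and at most 22 elsewhere, and MTR_6g009650 had 25 counts in Mtphr2 replicate 1 and at most 1 elsewhere.

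Higher values in Mtphr2 replicate 3 also marked MTR_6g078100, closest to the Arabidopsis Kunitz inhibitor KTI5. It had 8.99, 10.1 and 57.5 CPM in Mtphr2 replicates 1 to 3 and 4.83, 2.56 and 4.50 CPM in R108 replicates 1 to 3. The genotypes did not overlap, and DESeq2 called the gene (adjusted p = 0.00645), whereas its log2 fold change of 2.69 did not pass edgeR's test (SE 0.81, adjusted p = 0.232) and came to 1.27 without Mtphr2 replicate 3. Its neighbour MTR_6g078070 had 8.28, 18.8 and 15.7 CPM in Mtphr2 and 6.68, 15.4 and 6.28 CPM in R108 (log2 fold change 0.59, adjusted p = 0.544 by edgeR). The other 6 genes of that run had at most 2 counts in a library. MTR_3g106585, on chromosome 3, has miraculin as its closest entry, a taste-modifying fruit protein with the Kunitz fold. It had 185, 311 and 507 CPM in Mtphr2 and 267, 128 and 309 CPM in R108, with overlap and a fitted log2 difference of 0.51 (SE 0.45, adjusted p = 0.605 by edgeR), or 0.083 without Mtphr2 replicate 3.

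All 4 tested Bowman-Birk genes, of 14, had positive log2 fold changes, with a median of 0.81, and all 4 lie in the run on chromosome 7. MTR_7g077160 had 79.4, 59.7 and 139.8 CPM in Mtphr2, against 45.7, 42.3 and 54.2 CPM in R108, without overlap. Its mean was 1.96-fold higher (log2 fold change 0.97, SE 0.31, adjusted p = 0.249 by edgeR, and 0.0530 by DESeq2). MTR_7g077210, described as Bowman-Birk but with no annotated domain, had 5.97, 3.50 and 11.95 CPM in Mtphr2, against 2.01, 1.90 and 1.95 CPM in R108. The genotypes did not overlap, the log2 fold change was 1.87 (SE 0.46, adjusted p = 0.197 by edgeR), and DESeq2 called it higher (adjusted p = 0.00851). MTR_7g077340, the most abundant of the family, had 207, 156 and 344 CPM in Mtphr2 and 158, 102 and 194 CPM in R108. It was higher in Mtphr2 in each same-number pair, but Mtphr2 replicate 2 lay below R108 replicates 1 and 3 (log2 fold change 0.64, SE 0.35, adjusted p = 0.411 by edgeR). MTR_7g077313 had 9.67 ± 1.84 CPM in Mtphr2 and 8.22 ± 3.08 CPM in R108. Mtphr2 replicate 3 was the highest library for the first 3 of these genes, and without it their log2 fold changes were 0.55, 1.28 and 0.26.

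**Figure D5:**
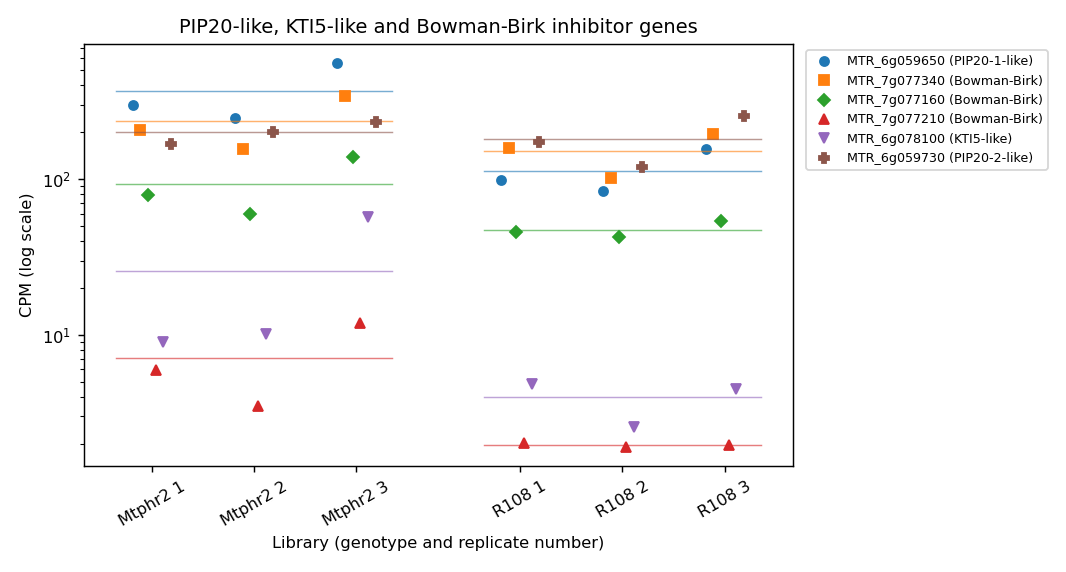
CPM on a log axis in each library of 6 inhibitor genes closest to PIP20-1, PIP20-2, KTI5 or a Bowman-Birk entry, with lines at the mean over the 3 libraries of a genotype. MTR_6g059650 is at 246 CPM or more in every Mtphr2 library and at 155 CPM or less in every R108 library, and Mtphr2 replicate 3 holds the highest Mtphr2 value of each gene shown.

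Cystatins, the inhibitors of papain-type proteases, were seldom detected. Of 19 genes 3 were tested and 0 passed edgeR's test, with 0 at an unadjusted p under 0.05, and 0 by DESeq2. The shares of all tested loci were 0.0794%, 16.4% and 5.73%, so 0 among 3 genes is not read as a result. MTR_3g043750 had 66.9, 88.5 and 66.7 CPM in Mtphr2 and 73.9, 103 and 80.0 CPM in R108 (log2 fold change -0.21, SE 0.17, adjusted p = 0.576 by edgeR). MTR_8g041410, closest to a rice cystatin, had 86.7, 81.2 and 64.1 CPM in Mtphr2 and 135, 88.9 and 84.3 CPM in R108 (log2 fold change -0.41, SE 0.21, adjusted p = 0.388 by edgeR). Both were lower in Mtphr2 in all 3 same-number pairs, as were 22.3% of all tested loci, while their genotypes overlapped. MTR_5g088770 had 33.2, 18.5 and 7.24 CPM in Mtphr2 and 14.8, 16.3 and 16.6 CPM in R108, a wide spread in Mtphr2 around a narrow one in R108.

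The potato type II inhibitors, a family known for its wound response in tomato and potato, also spread in Mtphr2. MTR_4g032815 had 68.9, 58.2 and 21.5 CPM in Mtphr2 and 57.3, 62.3 and 64.4 CPM in R108 (log2 fold change -0.31, SE 0.39, adjusted p = 0.732 by edgeR). Its neighbour MTR_4g032865 had 29.97, 20.7 and 6.99 CPM in Mtphr2 and 21.8, 24.6 and 23.6 CPM in R108, with Mtphr2 replicate 3 again lowest. Counts of both were not whole in any library, so the split between them is uncertain. The Kazal-type gene MTR_5g068760 had the smallest SE of the 36 genes, at 27.0, 25.3 and 28.1 CPM in Mtphr2 and 29.0, 28.3 and 26.8 CPM in R108 (log2 fold change -0.06, SE 0.09, adjusted p = 0.769 by edgeR). Of the von Willebrand factor genes, MTR_2g042570 had 7.73, 1.98 and 2.10 CPM in Mtphr2 and 35.0, 16.2 and 5.90 CPM in R108, and it fell by DESeq2 (adjusted p = 0.0340) but did not pass edgeR's test (log2 fold change -2.28, SE 0.80, adjusted p = 0.266). As with the arbuscule markers, Mtphr2 replicate 1 was near R108 replicate 3, and the part of the markers was not tested. The other members of that kind, MTR_4g125080 and MTR_8g021230, had log2 fold changes of -0.12 and 0.11.

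Proteases of the classes that such inhibitors act on were counted by their descriptions. Of 49 tested subtilisin-like genes, which include 3 subtilisin inhibitors, 0 passed edgeR's test, with 9 at an unadjusted p under 0.05, and DESeq2 called 4 (1 higher, 3 lower). Of those 3, MTR_3g020800 and MTR_3g020880 are subtilisin inhibitors, so that 1 protease was higher and 1 lower. All these counts are to be read against the shares of all tested loci. These are 0.0794% called by edgeR, 16.4% at an unadjusted p under 0.05, 0.335% called with the replicate block and 5.73% called by DESeq2. Of 40 tested serine carboxypeptidases 0 passed, with 6 at an unadjusted p under 0.05, and DESeq2 called 4 (1 higher, 3 lower). Of 40 tested cysteine proteases 1 was lower by edgeR's test, with 13 at an unadjusted p under 0.05, and 7 were lower with the replicate block. All of the 7 but MTR_3g116080 were highest in replicate 1 of both genotypes. MTR_4g107930, for example, had 14.6, 0.875 and 0.762 CPM in Mtphr2 and 240, 21.7 and 21.2 CPM in R108. Without the block their adjusted p by edgeR was 0.276 to 0.321. These block calls rest on a pairing taken from the data, which stands out for number 1 alone. DESeq2 called 4 of the 40 (1 higher, 3 lower), the higher one being MTR_2g083930 with 1.013 ± 0.468 CPM in Mtphr2 and 0.0875 ± 0.0791 CPM in R108 (DESeq2 adjusted p = 0.0190). No adjusted p came from DESeq2 for MTR_2g075830, MTR_4g080700, MTR_4g080730, MTR_4g107930 and MTR_5g022560, all among the 7 lower with the block, so it could not call them. The gene lower by edgeR with and without the block was the papain-type protease MTR_3g116080. It had 2.01, 3.45 and 3.19 CPM in Mtphr2 and 94.1, 102.1 and 127.6 CPM in R108 (log2 fold change -5.22, adjusted p = 0.00162 by edgeR). Its R108 libraries spanned 1.36-fold and were highest in replicate 3, where the markers were the lowest of the R108 libraries. The part of the markers in the level of this gene was not tested. Of 45 tested aspartic proteases 0 passed, with 5 at an unadjusted p under 0.05, and 1 was lower with the block, the aspartyl protease gene MTR_3g006820 with 1.18 ± 1.03 CPM in Mtphr2 and 9.04 ± 5.54 CPM in R108 (block adjusted p = 0.0463 by edgeR). DESeq2 called 4 of the 45 (2 higher, 2 lower), among them MTR_5g022880, higher with 73.4 ± 11.1 CPM in Mtphr2 and 41.1 ± 3.46 CPM in R108 (DESeq2 adjusted p = 6.96e-05). The medians of their log2 fold changes were -0.16, -0.12, -0.0145 and -0.0041, against 0.02 for all tested loci. Of the subtilisin inhibitors, a further kind of serine protease inhibitor outside the words that chose the 90 genes, MTR_3g020800 had 0.658 ± 0.695 CPM in Mtphr2 and 5.85 ± 3.67 CPM in R108, and it fell by DESeq2 (adjusted p = 0.00787) but not by edgeR (adjusted p = 0.216). Serpins, with 4 tested genes, had 0 passing by edgeR, 0 at an unadjusted p under 0.05 and 0 by DESeq2. Jasmonate controls wound-induced inhibitors in other plants. Of 41 tested genes of its synthesis and signalling 0 passed edgeR's test, with 9 at an unadjusted p under 0.05, and DESeq2 called 4 (1 higher, 3 lower). All 4 are described as seed linoleate 9S-lipoxygenases, which belong to a branch of oxylipin metabolism other than jasmonate synthesis. Counts of the 3 lower genes were not whole in any library, so their single values are uncertain. The genotypes overlapped in MTR_8g018570, with 34.1, 27.1 and 32.2 CPM in Mtphr2 and 190, 81.0 and 29.9 CPM in R108.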

How the data were processed

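Per the labels' protocols, RNA was extracted from mycorrhizal roots with TRIzol, sequenced on an Illumina NovaSeq, and aligned and assembled against Medicago truncatula genome v4.0 with HISAT2 and StringTie. DESeq2 is also named, per the submitters' processing notes. No version and no counting program is given in the sources used here. The authors' deposited file gives estimated counts (expected counts) with 2 decimals, and its descriptions, Swiss-Prot matches, domains and gene lengths were used as given. The deposited length in bases is of unstated origin and was used for CPM per kilobase.

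Counts were rounded to whole numbers. Loci were kept by filterByExpr (minimum count 10, minimum total 15), which left 22663, scaled by TMM (factors 0.955 to 1.02) and compared in edgeR 4.0.16 (R 4.3.3) by the quasi-likelihood test with genotype alone. P-values were adjusted by Benjamini-Hochberg over all tested loci, and calls were made at 0.05. The SE is the log2 fold change divided by the root of the F statistic. The common biological coefficient of variation was 0.275. Alternatives used DESeq2 1.42.0, limma 3.58.1, other scalings and filters, and each library left out. The tests were tested on simulated data, where DESeq2 recovered more of the changed loci than edgeR and also made more false calls, a larger share of its calls. The simulated loci varied independently at the dispersions fitted by edgeR, without shifts shared by many loci of a library. The simulation therefore cannot decide which calls in these libraries are false. Figures were drawn with matplotlib 3.10.9.

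Sample titles carry the numbers 1 to 3 in both genotypes. After genotype means were removed, libraries with the same number correlated across loci at 0.377, 0.151 and 0.168. Each was above 0.1, so they were taken as pairs. Mtphr2 replicate 2 and R108 replicate 3 correlated at 0.187, above the 0.151 and 0.168 of numbers 2 and 3. The other libraries of different numbers correlated at -0.310 to -0.00899. The pairing therefore stands out for number 1 alone and is uncertain for numbers 2 and 3. The edgeR model with the number added (the replicate block) is reported beside a result whose call it alters. That pairing comes from the data, not from the labels. Loci are not independent replicates in these correlations. No pair of libraries of a genotype agreed within sampling noise (chi-square per degree of freedom 25.1 to 51.7).

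The 90 genes and the lists were chosen with earlier results of these data known. Genes were named if called with or without the block, if among the 10 largest changes without overlap, if among the 8 of highest mean CPM, or if among the 2 of highest mean CPM of a subfamily. All others named were chosen after their values were seen. The word tify also matched rectifying channels, which were taken out of the jasmonate list, and the cysteine protease words also match OTU-like proteases. Of the 90 genes 61 carry a gene ID, of which 60 were found in the RefSeq table of assembly MtrunA17r5.0-ANR, used for names alone. No sequences were used.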

Additional observations from a re-analysis of the deposited data

How the results depend on the processing

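The count of protease inhibitor genes called was 0 by edgeR with genotype alone, 1 with the replicate block, 4 by DESeq2, and 0 with other scalings (DESeq2-type size factors, library size alone), other filters (no filter, a mean of at least 10 CPM), limma-voom, and each of the 6 libraries left out. The count over all loci was 18, and it was 76 with the replicate block, 34 with no filter, 9 with a mean of at least 10 CPM, 1298 by DESeq2, 31 by limma-voom, and 7 to 44 with 1 library left out, the highest without Mtphr2 replicate 1 and the lowest without Mtphr2 replicate 2 or 3. The cause of these shifts was not tested. The block changed no other call of an inhibitor gene named here than that of MTR_6g059650. With 1 library left out, the log2 fold change of MTR_6g059650 ran from 1.27 to 1.99 and its adjusted p by edgeR from 0.143 to 0.371. That of MTR_4g032815 ran from -0.62 to 0.052, turning sign without Mtphr2 replicate 3, and that of MTR_6g059730 from -0.094 to 0.43, turning sign without R108 replicate 2. The median of the 11 tested genes closest to KPI104, KPI106 or KPI111, -2.60 in all libraries, was -4.54 without Mtphr2 replicate 1 and -1.86 without R108 replicate 1, and KPI106 (MTR_8g059790) ran from -4.25 to -1.97. Counts of 0 limit the silent genes to 0.138 to 0.163 CPM in a library.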
